A study of Mus musculus with 6 samples.

Results

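The genes described here are the ligands and receptors of the CXCL12, apelin and adrenomedullin axes in endothelial isolates of mouse lung. They are Cxcl12, Cxcr4, Ackr3, Apln, Aplnr, Adm, Calcrl, Ramp1, Ramp2 and Ramp3, 10 of the 56941 genes in the count table. They were picked by name, as peptide ligands and receptors of lung capillaries, with the difference between EC-KO and FL already known, and the low values of Ackr3 and Cxcl12 in EC-KO were part of that choice. Their differences between the groups are therefore a description, and no p-value is given for any of them. All 10 passed the filter on low counts.

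RNA was sequenced from primary lung endothelial cells of mice with an endothelial knockout of Fundc1 (EC-KO, 3 libraries, genotype label FUNDC1-KO) and of floxed mice that serve as controls (FL, 3 libraries, genotype label FUNDC1-FLOX). FUNDC1 is a mitophagy receptor on the surface of mitochondria, and the study concerns pulmonary hypertension. Cells of both groups were isolated with magnetic beads, freed of dead cells and kept in endothelial medium with serum. Cre driver, age and sex of the mice, bead antibody and culture time are not in the labels, and the titles say PAECs where the protocols say lungs. Whether each library stands for its own animal is not said, so p-values below measure only the spread among these samples, and that spread may be technical.

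CXCL12 is a chemokine made by vessel walls and stroma. CXCR4 is its signalling receptor, and ACKR3 is an atypical receptor that binds and clears CXCL12 without classical G protein signalling and has also been reported to bind adrenomedullin. Apelin is a peptide that lowers vascular tone through the receptor APLNR; in the mouse lung Aplnr marks general capillary cells and Apln marks aerocytes, the capillary cells of gas exchange. Adrenomedullin is a vasodilator and barrier-protecting peptide whose receptor is CALCRL paired with RAMP2 or RAMP3, while CALCRL paired with RAMP1 makes the receptor for calcitonin gene-related peptide. Adm, Apln and Cxcr4 are also known as genes that hypoxia induces.

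Of the 10 genes, 4 were called lower and 1 higher in EC-KO at an adjusted p under 0.05 in edgeR's quasi-likelihood test. Over all 18562 genes tested, 13.5% were called lower and 13.5% higher, 27.1% in all. The groups did not overlap in 7 of the 10, against 45.4% of all tested genes. Since the genes were chosen with this contrast known, nothing is read from these counts. The median log2 fold change of EC-KO over FL was -0.59 for the 10 genes and 0.03 for all tested genes.

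Depth was between 26658998 and 34306962 gene counts per library. Fundc1 (ENSMUSG00000025040, chromosome X) had 14.1, 18.2 and 12.8 CPM (counts scaled to library size with TMM factors) in EC-KO 1, 2 and 3, and 25.05, 31.96 and 30.7 CPM in FL 1, 2 and 3. It was lower in every EC-KO library but far from absent, with means of 15.04 ± 2.78 CPM in EC-KO and 29.2 ± 3.68 CPM in FL (SD, n = 3 each; log2 fold change -0.96, adjusted p = 0.00796 in edgeR). Markers of other cell types were present in both groups and differed between them. Of 18 pan-endothelial markers 12 fell and 0 rose, with summed levels of 3834 to 7715 CPM in EC-KO and 10350 to 14340 CPM in FL. Epithelial markers rose in 11 of 12 cases, with sums of 11110 to 16530 CPM in EC-KO and 1804 to 4325 CPM in FL. Fibroblast markers rose in 7 of 11 cases, with sums of 1018 to 2667 CPM in EC-KO and 514.7 to 693.3 CPM in FL. Macrophage markers fell in 7 of 8 cases, with sums of 1977 to 2741 CPM in EC-KO and 3200 to 4982 CPM in FL. No marker on these lists was at 0 in all libraries. In such bulk samples fewer cells of a type and less RNA per cell cannot be told apart, and the part of these marker shifts in the values below was not tested. EC-KO 2 stood apart, with a mean of the pan-endothelial list of -0.74 on the log2 scale relative to FL, against -1.68 in EC-KO 1 and -1.67 in EC-KO 3.

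Chemokine ligand first, Cxcl12 (ENSMUSG00000061353, chromosome 6) was lower in every EC-KO library. Its level was 89.1, 149.0 and 84.7 CPM in EC-KO 1, 2 and 3, and 399.5, 521.0 and 600.4 CPM in FL 1, 2 and 3. The highest EC-KO library, EC-KO 2, was well below the lowest FL library, FL 1. The means were 108 ± 35.9 CPM in EC-KO and 507 ± 101 CPM in FL (SD, n = 3 each), and EC-KO over FL gave a log2 fold change of -2.24 ± 0.31 (SE from the spread of log2 CPM). Fibroblasts also make CXCL12, and their markers were higher in EC-KO, with list means relative to FL of 1.67, 2.29 and 0.90 in EC-KO 1, 2 and 3. Smooth muscle and pericyte markers, another stromal list, fell in 7 of 10 cases, with means of -1.22, -0.63 and -1.15 in the same libraries. In mouse lung Cxcl12 is also made by general capillary and arterial cells. Means of the general capillary list were -1.88, -0.96 and -1.73 in EC-KO 1, 2 and 3, and those of the arterial list were -0.90, -0.18 and -1.04. Cxcl12 itself lay at -2.49, -1.75 and -2.56 relative to FL in the same libraries.

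Ackr3 (ENSMUSG00000044337, chromosome 1), the scavenging receptor, had the largest difference of the 10 genes. It had 54.2, 75.2 and 56.9 CPM in EC-KO 1, 2 and 3, and 461.6, 355.3 and 488.7 CPM in FL 1, 2 and 3. The groups were far apart, and the 3 EC-KO libraries lay close together. The means were 62.1 ± 11.5 CPM in EC-KO and 435 ± 70.5 CPM in FL (SD, n = 3 each), and EC-KO over FL gave a log2 fold change of -2.81 ± 0.20. This value was between -3.0 and -2.72 when any 1 library was left out.

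Cxcr4 (ENSMUSG00000045382, chromosome 1), the signalling receptor, went the other way. Its level was 807.4, 344.6 and 704.8 CPM in EC-KO 1, 2 and 3, against 135.3, 270.8 and 187.2 CPM in FL 1, 2 and 3. The groups did not overlap, but the lowest EC-KO library, EC-KO 2, was nearer to FL 2 than to the other EC-KO libraries. The means were 619 ± 243 CPM in EC-KO and 198 ± 68.4 CPM in FL (SD, n = 3 each), and EC-KO over FL gave a log2 fold change of 1.65 ± 0.48. Many leukocytes carry CXCR4. Macrophage markers had means of -2.29, -1.86 and -1.96 and neutrophil markers of -2.30, -2.57 and -2.46 relative to FL in EC-KO 1, 2 and 3. Lymphocyte markers had means of 0.46, -0.73 and 0.12, lowest in EC-KO 2, where Cxcr4 was also lowest among the EC-KO libraries. Their summed level was 563.4, 212.7 and 492.2 CPM in EC-KO 1, 2 and 3, and 455.7, 387.1 and 293.7 CPM in FL 1, 2 and 3. Which cells carried the Cxcr4 transcripts was not tested.

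**Figure D1:**
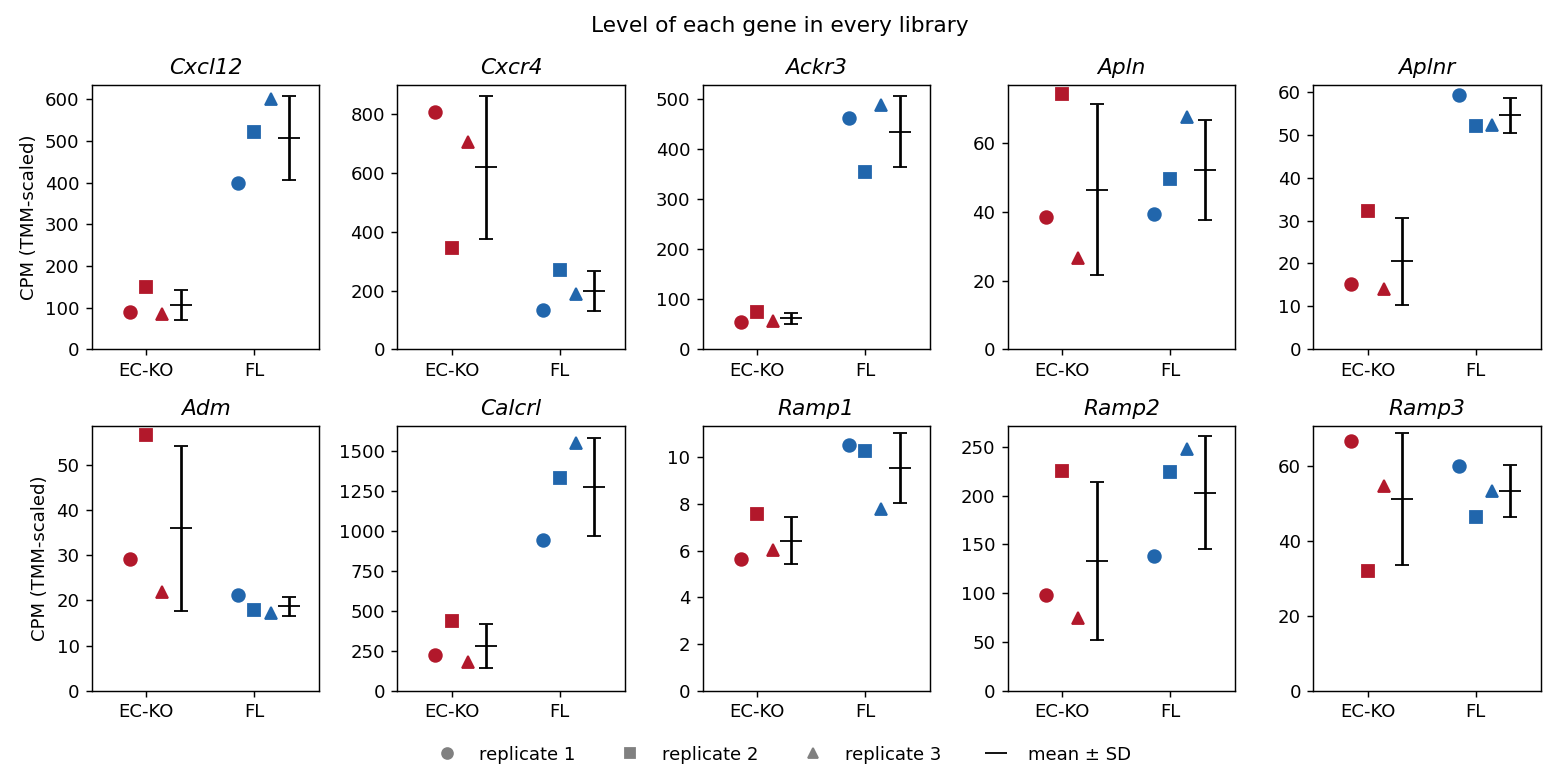
Levels of the 10 genes in CPM (TMM-scaled, linear axis from 0), with 1 point per library, marked by replicate number, EC-KO on the left and FL on the right of each panel; black bars are the mean ± SD of 3 libraries. Cxcl12, Ackr3, Aplnr, Calcrl and Ramp1 are lower and Cxcr4 and Adm higher in every EC-KO library than in any FL library, while Apln, Ramp2 and Ramp3 overlap.

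Because both receptors bind the same chemokine, their balance within a library was also described, on a scale per gene length (TPM, in which counts are divided by gene length before scaling). The ratio of Ackr3 to Cxcr4 was 0.0362, 0.118 and 0.0436 in EC-KO 1, 2 and 3, and 1.84, 0.709 and 1.41 in FL 1, 2 and 3. Transcripts of the scavenging receptor were thus far below those of the signalling receptor in each EC-KO library, and on this scale of similar level in FL. In CPM, without gene length, Ackr3 was above Cxcr4 in every FL library (461.6, 355.3 and 488.7 against 135.3, 270.8 and 187.2 CPM in FL 1, 2 and 3). The ratio of Cxcl12 to Cxcr4 was 0.0244, 0.0956 and 0.0266 in EC-KO 1, 2 and 3, and 0.653, 0.426 and 0.709 in FL 1, 2 and 3. Cxcl12 and Ackr3 stayed closer to each other, with a ratio of 0.674, 0.811 and 0.610 in EC-KO and 0.354, 0.601 and 0.503 in FL.

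Promoter sequences are shown for Ackr3 and Cxcl12, with the most negative log2 fold changes, and for Cxcr4 and Adm, with the most positive, because ACGTG and GCGTG, the forms of the hypoxia response core, could be searched in them, and GCGTG is also the core of aryl hydrocarbon receptor elements. Sequences are RefSeq windows of 250 bases before to 50 after the gene start in GRCm38.p6, read 5′ to 3′ on the gene's strand, and capitals mark GCGTG on either strand (CACGC is its reverse complement); Cxcl12 holds none.
Ackr3, chr1:90203730-90204029, plus strand: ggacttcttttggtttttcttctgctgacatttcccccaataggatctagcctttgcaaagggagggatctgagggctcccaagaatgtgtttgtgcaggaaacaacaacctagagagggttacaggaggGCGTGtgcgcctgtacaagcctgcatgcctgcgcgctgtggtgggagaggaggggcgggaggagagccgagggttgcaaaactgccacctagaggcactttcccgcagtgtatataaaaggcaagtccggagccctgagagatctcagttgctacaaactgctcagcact
Cxcl12, chr6:117168285-117168584, plus strand: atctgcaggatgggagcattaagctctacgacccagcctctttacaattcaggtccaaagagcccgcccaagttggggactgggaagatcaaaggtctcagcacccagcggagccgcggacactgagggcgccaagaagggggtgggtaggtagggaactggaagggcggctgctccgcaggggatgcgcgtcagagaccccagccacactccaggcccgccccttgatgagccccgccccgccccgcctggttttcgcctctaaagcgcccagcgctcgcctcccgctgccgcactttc
Cxcr4, chr1:128592250-128592549, minus strand: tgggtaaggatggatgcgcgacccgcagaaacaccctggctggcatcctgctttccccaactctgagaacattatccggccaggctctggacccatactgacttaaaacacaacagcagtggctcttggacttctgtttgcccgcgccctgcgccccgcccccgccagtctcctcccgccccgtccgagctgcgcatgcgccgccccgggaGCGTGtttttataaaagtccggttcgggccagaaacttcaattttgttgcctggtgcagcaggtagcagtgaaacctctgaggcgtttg
Adm, chr7:110627407-110627706, plus strand: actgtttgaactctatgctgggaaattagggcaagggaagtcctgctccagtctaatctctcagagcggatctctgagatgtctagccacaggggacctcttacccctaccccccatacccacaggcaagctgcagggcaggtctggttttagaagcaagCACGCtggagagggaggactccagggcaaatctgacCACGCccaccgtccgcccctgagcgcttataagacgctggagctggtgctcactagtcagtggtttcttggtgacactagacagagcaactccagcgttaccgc

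The table of promoters matched 8 of the 10 genes, all but Aplnr and Ramp2. GCGTG, searched on both strands, was present in 5 of the 8, namely Cxcr4, Ackr3, Adm, Calcrl and Ramp3, against 32.4% of all 32851 windows of the same 300 bases. ACGTG was in 0 of the 8, against 19.6% of all windows. The motifs differ in their first letter, so a place on one strand matches at most one of them, while matches on opposite strands can share letters. Adm held GCGTG 90 and 54 bases before its start, Cxcr4 39 bases before and Ackr3 120 bases before. A match is a run of letters in this window and shows no binding.

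The groups overlapped for the apelin gene and not for its receptor gene. The ligand gene Apln (ENSMUSG00000037010, chromosome X) had 38.5, 74.4 and 26.6 CPM in EC-KO 1, 2 and 3, and 39.3, 49.6 and 67.9 CPM in FL 1, 2 and 3. The groups overlapped, with EC-KO 2 above every FL library and EC-KO 3 below them all. The log2 fold change was -0.17 ± 0.49, and it was -0.71 without EC-KO 2. Aerocyte markers, which Apln accompanies in mouse lung, had list means relative to FL of 0.28, 1.33 and -0.13 in EC-KO 1, 2 and 3, where Apln lay at -0.40, 0.55 and -0.94. Of these 8 markers 2 were called, Emp2 (log2 fold change 1.02) and Fibin (1.44), both higher in EC-KO. Epithelial and fibroblast markers also rose, and which cells carried the transcripts of the aerocyte list was not tested.

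The receptor gene Aplnr (ENSMUSG00000044338, chromosome 2) was lower in every EC-KO library. It had 15.3, 32.2 and 14.1 CPM in EC-KO 1, 2 and 3, and 59.1, 52.0 and 52.3 CPM in FL 1, 2 and 3. The FL libraries lay close together and EC-KO 2 was between them and the other EC-KO libraries. The means were 20.5 ± 10.1 CPM in EC-KO and 54.5 ± 4.04 CPM in FL (SD, n = 3 each), and EC-KO over FL gave a log2 fold change of -1.41 ± 0.38, or -1.92 without EC-KO 2. On the TPM scale Apln was 2.96, 2.72 and 2.21 times Aplnr in EC-KO 1, 2 and 3, and 0.782, 1.12 and 1.53 times in FL 1, 2 and 3. That ratio did not overlap between the groups, and it did not set EC-KO 2 apart.

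In the adrenomedullin axis the peptide gene and the main receptor gene differed in direction. Adm (ENSMUSG00000030790, chromosome 7), the precursor of adrenomedullin, had 29.3, 56.6 and 22.0 CPM in EC-KO 1, 2 and 3, and 21.2, 17.8 and 17.2 CPM in FL 1, 2 and 3. EC-KO 2 was far above the rest, and EC-KO 3 barely exceeded FL 1. The means were 35.9 ± 18.3 CPM in EC-KO and 18.7 ± 2.13 CPM in FL (SD, n = 3 each), and EC-KO over FL gave a log2 fold change of 0.94 ± 0.41, which was 0.42 without EC-KO 2. Among the EC-KO libraries EC-KO 2 also had the highest means of epithelial (2.80), fibroblast (2.29), aerocyte (1.33), smooth muscle and pericyte (-0.63) and pan-endothelial (-0.74) markers, and which cells carried the Adm transcripts was not tested.

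Calcrl (ENSMUSG00000059588, chromosome 2), the receptor subunit that binds the peptide, had the highest CPM of the 10 genes in FL. It had 222.4, 439.2 and 181.9 CPM in EC-KO 1, 2 and 3, against 942.5, 1333 and 1553 CPM in FL 1, 2 and 3. No EC-KO library reached the lowest FL library, FL 1. The means were 281 ± 138 CPM in EC-KO and 1276 ± 309 CPM in FL (SD, n = 3 each), and EC-KO over FL gave a log2 fold change of -2.18 ± 0.44. On the TPM scale Adm was 0.397, 0.389 and 0.364 times Calcrl in EC-KO 1, 2 and 3, and 0.0677, 0.0402 and 0.0334 times in FL 1, 2 and 3. The 3 EC-KO values of this ratio were nearly equal although EC-KO 2 had the highest level of both genes.

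**Figure D2:**
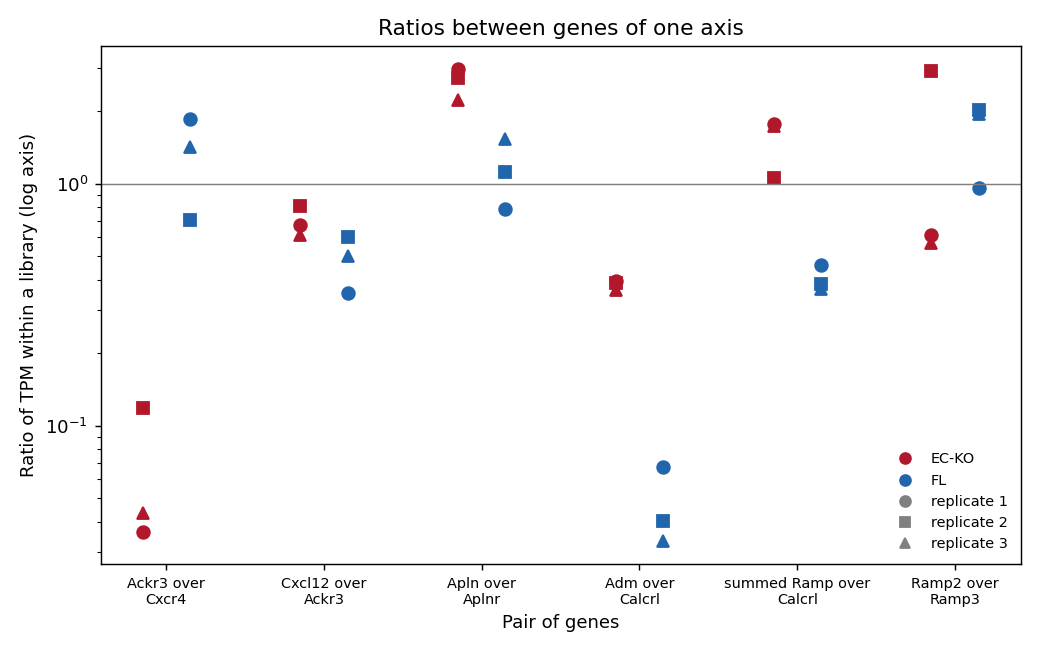
Ratios of TPM between genes of one axis within each library (log axis), with EC-KO points left and FL points right of each tick and replicate numbers as marker shapes; the grey line marks a ratio of 1. Ackr3 over Cxcr4 is lower in EC-KO, Apln over Aplnr, Adm over Calcrl and summed Ramp over Calcrl are higher, and Ramp2 over Ramp3 overlaps between the groups.

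The RAMP genes, whose proteins carry CALCRL to the surface and set which peptide it binds, differed less than Calcrl. Ramp2 (ENSMUSG00000001240, chromosome 11), the partner most closely tied to vessel integrity in mice, had 98.2, 225.3 and 74.8 CPM in EC-KO 1, 2 and 3, and 138.1, 224.2 and 247.5 CPM in FL 1, 2 and 3. EC-KO 2 was level with FL 2, so the groups overlapped, and the log2 fold change of -0.62 ± 0.54 was -1.26 without EC-KO 2. The table gives Ramp2 3301 exon bases, of which 1103 are shared with Vps25 on the same strand, and Vps25 itself had at most 15 counts in any library, so the counts and the length-scaled level of Ramp2 are uncertain.

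Ramp3 (ENSMUSG00000041046, chromosome 11), the partner in the other adrenomedullin receptor, had 66.9, 32.1 and 54.8 CPM in EC-KO 1, 2 and 3, and 60.3, 46.4 and 53.4 CPM in FL 1, 2 and 3. It was lowest in EC-KO 2, the reverse of Ramp2, and the groups overlapped with a log2 fold change of -0.06 ± 0.33. Of its exon bases 101 are shared with an antisense gene, Gm11978, which had at most 13 counts. Ramp1 (ENSMUSG00000034353, chromosome 1), the partner in the receptor for calcitonin gene-related peptide, was scarce, with 5.66, 7.56 and 6.03 CPM in EC-KO 1, 2 and 3, and 10.5, 10.3 and 7.80 CPM in FL 1, 2 and 3. The ranges of Ramp1 came close to each other at EC-KO 2 and FL 3, and its log2 fold change was -0.57 ± 0.19.

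Ramp transcripts split between Ramp2 and Ramp3 in a way that varied as much within the groups as between them. Of the summed Ramp level on the TPM scale, Ramp2 made up 37.1%, 72.6% and 35.2% in EC-KO 1, 2 and 3, and 47.0%, 64.7% and 64.5% in FL 1, 2 and 3. Ramp3 made up 60.5%, 24.8% and 61.7% in EC-KO and 49.1%, 32% and 33.3% in FL, and Ramp1 between 2.22% and 3.92% in all libraries. Counted per exon base shared with no other gene, a choice made after seeing the overlap, Ramp2 made up 45.2%, 78.8% and 43.1% in EC-KO 1, 2 and 3, and 55.4%, 72.0% and 71.8% in FL 1, 2 and 3. Ramp3 then made up 52.9%, 19.3% and 54.3% in EC-KO, and 41.5%, 25.6% and 26.6% in FL. FL 1 thus held more Ramp2 than Ramp3 on that count. In CPM, without gene length, Ramp2 was above Ramp3 in every library. Summed over the 3 genes on the TPM scale, Ramp transcripts were 1.76, 1.05 and 1.73 times those of Calcrl in EC-KO 1, 2 and 3, and 0.461, 0.384 and 0.365 times in FL 1, 2 and 3. On that scale Calcrl was thus the more abundant side of the receptor complex in FL and not in EC-KO, by transcripts, though EC-KO 2 was near 1. With unshared exon bases the ratio was 2.17, 1.45 and 2.12 in EC-KO and 0.59, 0.52 and 0.49 in FL. In CPM, without gene length, Calcrl was above the summed Ramp level in every library of both groups, so its rank in EC-KO depends on division by length.

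**Figure D3:**
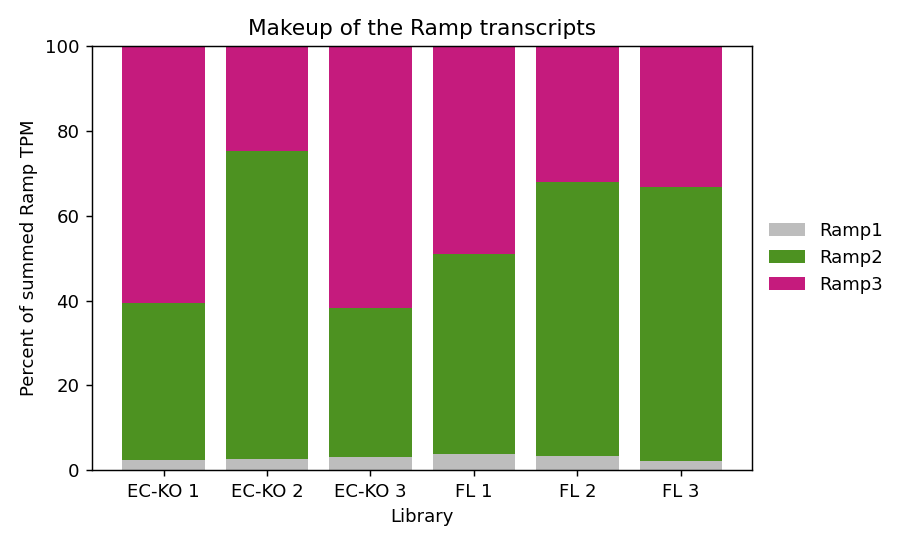
Share of Ramp1, Ramp2 and Ramp3 in their summed TPM in each library (stacked bars, percent), EC-KO libraries on the left and FL libraries on the right. Ramp2 is the larger share in EC-KO 2 (72.6%), FL 2 (64.7%) and FL 3 (64.5%), and Ramp3 in EC-KO 1 (60.5%), EC-KO 3 (61.7%) and, narrowly, FL 1 (49.1%). Which gene is larger depends on the length used. Per unshared exon base Ramp2 is the larger share in FL 1 (55.4%), and in CPM it is above Ramp3 in every library.

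Compared per gene length on the TPM scale, the order of the 10 levels differed between the groups. In EC-KO, Cxcr4 was first with 1223 ± 539 TPM, followed by Calcrl with 196 ± 77.0, Ramp2 with 136 ± 69.7, Ramp3 with 132 ± 51.5, Adm with 75.3 ± 30.9, Ackr3 with 64.4 ± 7.19, Apln with 50.03 ± 21.9 and Cxcl12 with 45.2 ± 10.7 TPM (SD, n = 3). From Calcrl down to Cxcl12 the library ranges of each gene and the next overlapped, so neighbours in that stretch are not told apart. Genes further apart could be separate, since the lowest Calcrl library (143.6 TPM) was above every library of Adm, Ackr3, Apln and Cxcl12. Cxcr4 above that stretch, and Aplnr (18.9 ± 7.43 TPM) and Ramp1 (7.38 ± 0.72 TPM) below it, did not overlap their neighbours. In FL, Calcrl was first with 913 ± 222 TPM and Ackr3 (453 ± 68.3) and Cxcr4 (383 ± 138) came next with overlapping ranges. They were followed by Cxcl12 (217 ± 43.4), Ramp2 (215 ± 61.6) and Ramp3 (135 ± 16.1), whose neighbours overlapped, then Apln (58.0 ± 15.8) and Aplnr (51.4 ± 3.46), which overlapped, and at the low end Adm (40.4 ± 4.37) and Ramp1 (11.03 ± 1.80 TPM), each apart from its neighbours (SD, n = 3). Without division by length, 7 of the 10 ranks in FL changed, with Cxcl12 then at rank 2 and Cxcr4 at rank 5.

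**Figure D4:**
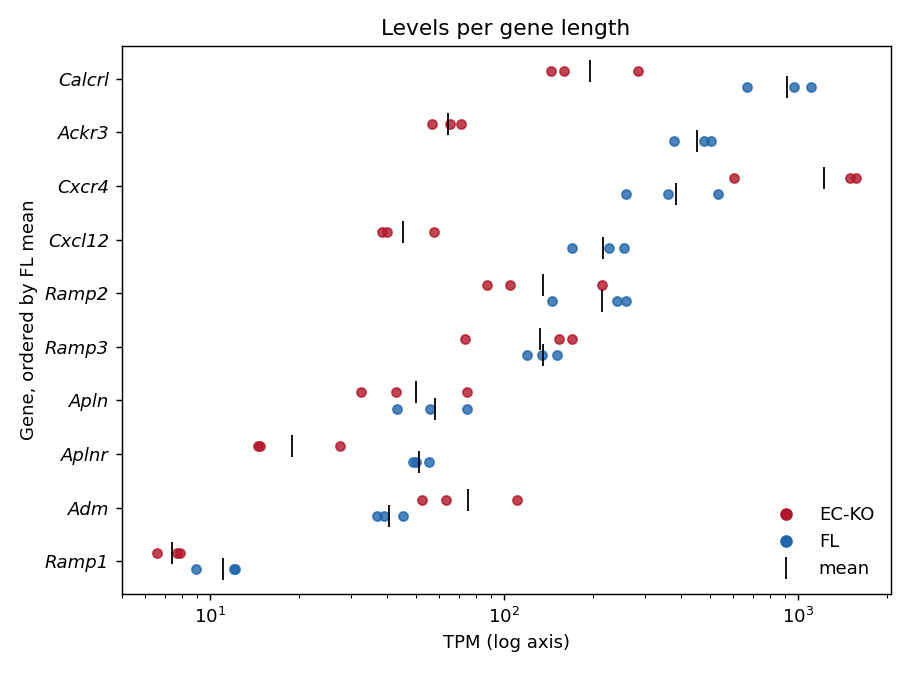
Level of each gene in TPM (log axis), with 1 point per library, the EC-KO row above the FL row of each gene and black ticks at the group means, ordered by the mean in FL. Calcrl heads FL (913 TPM) and Cxcr4 heads EC-KO (1223 TPM), and Ramp1 is lowest in both.

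Library by library, 8 of the 10 genes were highest in EC-KO 2 among the EC-KO libraries, all but Cxcr4 and Ramp3, which were lowest there. The means of the marker lists were also highest in EC-KO 2 for every list but the mesothelial, neutrophil and lymphocyte ones. Within FL, Calcrl (-0.41, 0.09 and 0.31), Ramp2 (-0.51, 0.19 and 0.33), Cxcl12 (-0.32, 0.06 and 0.26) and Apln (-0.37, -0.04 and 0.41) lay in the same order over FL 1, 2 and 3 as the pan-endothelial mean (-0.20, -0.04 and 0.24). The other 6 genes did not, among them Ackr3 (0.10, -0.28 and 0.18) and Aplnr (0.12, -0.06 and -0.06). Means of the general capillary, aerocyte, arterial, venous, lymphatic, and smooth muscle and pericyte lists lay in that order too. So few libraries allow few orders, and the share of all tested genes in this order was not counted, so nothing is read from it. When libraries were scaled to the pan-endothelial list, which moved the median of all tested genes by 1.41 on the log2 scale, Ackr3 was at -1.44, Cxcl12 at -0.90, Calcrl at -0.89 and Aplnr at -0.16. Under that scaling Cxcr4 was at 3.19, Adm at 2.18, Ramp3 at 1.45, Apln at 1.12, Ramp1 at 0.77 and Ramp2 at 0.64, so Apln, the Ramp genes and Adm were all above 0. These values are log2 fold changes of EC-KO over FL and describe the genes relative to a list that itself differed between the groups.

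**Figure D5:**
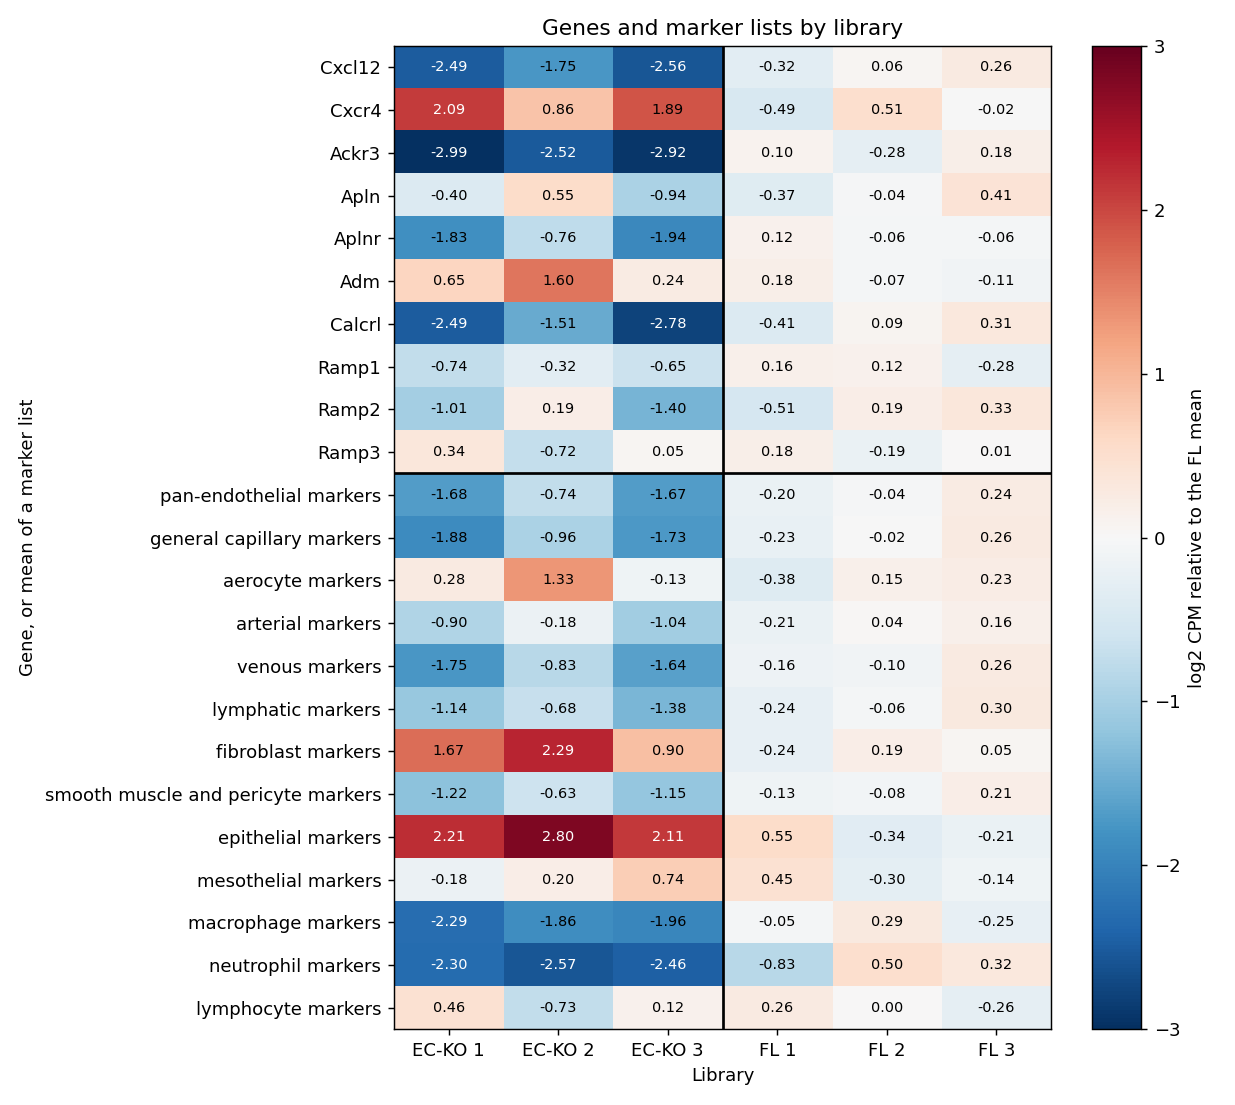
Log2 CPM relative to the FL mean in each library, for the 10 genes (upper rows) and for the mean of each marker list (lower rows), EC-KO libraries on the left and FL libraries on the right; red is above and blue below the FL mean. Ackr3 is at -2.99, -2.52 and -2.92 in EC-KO 1, 2 and 3, while pan-endothelial markers are at -1.68, -0.74 and -1.67.

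The genes whose profile over the 6 libraries was most like that of a given gene were found by the root mean square difference between log2 CPM profiles, each centred on its own mean. For Cxcl12 they were Acer2, an alkaline ceramidase (0.08), Ptprb, the endothelial receptor phosphatase VE-PTP (0.10), and Mctp1 (0.11). For Ackr3 they were Apold1, an endothelial early-response gene (0.15), Pgr, the progesterone receptor (0.16), and Fcgr1, an Fc receptor of macrophages (0.18). Calcrl was closest to Foxf1, a transcription factor of lung mesenchyme and capillaries (0.05), Aplnr to the death ligand gene Tnfsf10 (0.15), and Cxcr4 to Ddit3, which encodes the stress factor CHOP (0.26). Ddit3 had 94.1, 58.7 and 77.4 CPM in EC-KO 1, 2 and 3, and 20.5, 27.8 and 26.4 CPM in FL 1, 2 and 3. The closest to Adm was Upk1b (0.06), to Apln Lhfp (0.09), to Ramp1 Sfxn4 (0.06), to Ramp2 Nsg1 (0.09) and to Ramp3 Smug1 (0.07). These are descriptions over 6 libraries in 2 groups and say nothing of shared control.

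Other genes of the same signalling routes were mixed. Of 38 listed partners 35 were tested, of which 7 fell and 3 rose in EC-KO (28.6% called, against 27.1% of all tested genes; median log2 fold change -0.16). Among the other ligands, 1 of 5 tested fell and 0 rose. That was Cxcl11, a second ligand of ACKR3, with 0.606, 0.502 and 0.990 CPM in EC-KO 1, 2 and 3, and 5.46, 1.77 and 1.28 CPM in FL 1, 2 and 3 (log2 fold change -2.01 ± 0.69, adjusted p = 0.0325 in edgeR). FL 1 had by far the highest value, and Cxcl11 was at -1.16 and not called without that library (adjusted p = 0.102 in edgeR). Cxcl11 was also not called in the fits without EC-KO 1 or EC-KO 2 (0.109 and 0.0625), which kept FL 1. Its log2 fold change was -1.91 without EC-KO 1, against -1.16 without FL 1. A fit with fewer libraries has less power, so a lost call does not show which library the call rested on. Cxcl14, another listed ligand, was not called and its groups overlapped (log2 fold change 1.66 ± 0.79, adjusted p = 0.0511 in edgeR). It had 36.3, 92.2 and 14.7 CPM in EC-KO 1, 2 and 3, and 11.5, 19.2 and 14.5 CPM in FL 1, 2 and 3. Apela, the second ligand of APLNR, had 0 counts in all libraries, and Adm2 was too low to test.

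Of the other receptors 1 of 3 tested rose. Cxcr3, a chemokine receptor of activated lymphocytes that shares CXCL11, had 20.2, 7.84 and 14.0 CPM in EC-KO 1, 2 and 3, and 4.51, 4.92 and 5.03 CPM in FL 1, 2 and 3. It was above FL in all 3 EC-KO libraries and least so in EC-KO 2 (log2 fold change 1.54 ± 0.40, adjusted p = 0.00937 in edgeR), the library in which lymphocyte markers were lowest. Of the 7 lymphocyte markers 1 fell and 1 rose in EC-KO, and which cells carried the Cxcr3 transcripts was not tested. Calcr, the calcitonin receptor, was too low to test.

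Of 8 peptide-processing genes 2 rose and 0 fell. Mme, the peptidase neprilysin, averaged 41.6 ± 13.8 CPM in EC-KO and 23.5 ± 5.59 CPM in FL (SD, n = 3 each; log2 fold change 0.82 ± 0.32, adjusted p = 0.0460 in edgeR). Mme lost the call when any library but EC-KO 3 was left out (in the order EC-KO 1, EC-KO 2, FL 1, FL 2 and FL 3, 0.0775, 0.0850, 0.138, 0.0506 and 0.177). Dpp4, which inactivates CXCL12, was at -0.47 (adjusted p = 0.0529 in edgeR), and Pam, which amidates adrenomedullin, at -0.87 (0.0654).

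Signal transduction genes were lower where they were called, except that scaling to the pan-endothelial list put Adcy3, Adcy7, Adcy9, Gnai2 and Arrb2 above 0. Of 11 genes of G proteins and the cAMP arm 4 fell and 0 rose. Adcy3, an adenylyl cyclase, had 9.53, 9.85 and 13.0 CPM in EC-KO 1, 2 and 3, and 23.2, 28.8 and 23.6 CPM in FL 1, 2 and 3 (log2 fold change -1.23 ± 0.17, adjusted p = 0.00291 in edgeR). Adcy7 was at -0.94 (adjusted p = 0.0121), Adcy9 at -0.78 (0.0399) and Gnai2, the Gi subunit through which CXCR4 signals, at -0.72 (0.0313). Adcy7 was not called without FL 2 (0.0514), Adcy9 not when any library but EC-KO 2 was left out (0.0641 to 0.139), and Gnai2 not without EC-KO 1, EC-KO 3, FL 2 or FL 3 (0.0841 to 0.113). Gnas, the Gs subunit coupled to CALCRL, was at 0.05 (adjusted p = 0.870). Adcy4, the listed adenylyl cyclase with the highest CPM in both groups, was not called. Its means were 320 ± 126 CPM in EC-KO and 261 ± 28.8 CPM in FL (log2 fold change 0.29 ± 0.33, adjusted p = 0.439 in edgeR).

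The arrestins, which take activated receptors off the membrane and which ACKR3 recruits, were both lower. Arrb1 had 113.8, 181.8 and 115.4 CPM in EC-KO 1, 2 and 3, and 308.0, 468.9 and 479.6 CPM in FL 1, 2 and 3 (log2 fold change -1.61 ± 0.30, adjusted p = 0.00291 in edgeR). Arrb2 had 37.5, 33.5 and 35.6 CPM in EC-KO 1, 2 and 3, and 70.7, 82.8 and 74.3 CPM in FL 1, 2 and 3 (-1.10 ± 0.08, adjusted p = 0.00147). The groups did not overlap in either gene, and both genes kept their call in each of the 6 fits that left out 1 library. The other 6 genes of that list, among them the receptor kinase gene Grk2 at -0.48 (adjusted p = 0.0926), were not called. Beside the arrestins, macrophage markers were also lower (list median -2.13), and under scaling to the pan-endothelial list Arrb1 was at -0.26 and Arrb2 at 0.34, neither called (adjusted p = 0.423 and 0.391).

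Apln, Cxcr4 and Adm are known from endothelial tip cells, the leading cells of a sprout, so 9 other tip cell genes were examined. Of these 2 fell and 0 rose (median log2 fold change -0.55), where 13.5% of all tested genes were called lower and the median was 0.03. Angpt2, the vessel-destabilising angiopoietin, had 9.73, 14.0 and 11.4 CPM in EC-KO 1, 2 and 3, and 32.9, 21.5 and 38.2 CPM in FL 1, 2 and 3 (log2 fold change -1.40 ± 0.29, adjusted p = 0.00459 in edgeR; -0.02 and adjusted p = 0.956 under the pan-endothelial scaling). Pgf, placental growth factor, was at -1.06 ± 0.19 (adjusted p = 0.00872; 0.35 under the pan-endothelial scaling), while Esm1, a marker of tip cells, was at 0.22 (0.491) and Dll4, the Notch ligand of tip cells, at 0.39 (0.137). The number that fell was 5 without EC-KO 2.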

How the data were processed

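Counts per Ensembl gene were deposited by the authors as raw counts, 1 column per library, in the featureCounts layout per the file headers. STAR 2.7.10b, featureCounts 2.0.3 and mm10 appear, without role, in the submitters' processing notes; the annotation used, strandedness and alignment options were not given in the sources consulted. Gene length is another column of the deposited table. Only 2.8% of gene starts matched the GRCm38 annotation used for symbols, so the table's coordinates are not printed. A summary of alignments, also deposited as counts, assigned 72.4% to 77.8% to genes. The table had 2 per-sample columns that match no label, and these were not used.

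Counts were analysed with edgeR 4.0.16 in R 4.3.3: filterByExpr (18562 genes kept), TMM scaling, robust quasi-likelihood F test of EC-KO against FL over 6 libraries without covariates, two-sided, Benjamini-Hochberg adjustment over all tested genes, threshold 0.05. Levels are CPM with TMM scaling within a gene and TPM from the table's gene lengths between genes. Standard errors come from the spread of log2 CPM in the 2 groups. The scripted fit was checked on simulated data.

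Members, lists and the rule for named genes were chosen with earlier results of these data known. Named were all members, Fundc1, from each list at most 2 called genes a direction, those of smallest p, or its most abundant gene where none was called, and the closest profiles (3 for Cxcl12 and Ackr3, 1 for each other member, average log CPM of at least 1, no predicted loci). Other partner and tip cell genes were named after their values were seen. Same-numbered libraries of the groups had correlations of deviations from group means of 0.040, 0.119 and -0.142. EC-KO 1 and EC-KO 2 correlated best with the FL library of their own number, and EC-KO 3 with FL 1 (0.235). With 3 libraries a group such values cannot tell whether the numbers pair the libraries. The main fit did not pair them. Alternatives were other scalings (RLE, upper-quartile, total counts, pan-endothelial list), other filters, DESeq2 1.42.0, limma-voom (limma 3.58.1), a fit without robust, the replicate number as a block, and leaving out libraries. Planned comparisons of protein sequences were not made here. The values of 1 called gene of the peptide-processing list are not reported here. Figures were drawn with matplotlib 3.10.9.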

Additional observations from a re-analysis of the deposited data

How the results depend on the processing

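The log2 fold changes of the 10 genes were recomputed under 17 other settings; of 170 values 152 moved by less than the SD between replicates, 18 by more, and 0 of the called genes changed sign. Of the 18 moved values 10 came from scaling to the pan-endothelial list and the others from leaving out EC-KO 2, alone or with FL 1. Without FL 1 and EC-KO 2 together, each the library of its group with pan-endothelial markers closest to the other, Calcrl was at -2.87, Cxcl12 at -2.72, Aplnr at -1.86, Ramp2 at -1.48 and Apln at -0.88.

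Of all genes 5029 were called, 13743 under scaling to the pan-endothelial list, 7554 without FL 1 and EC-KO 2, and 2547 to 6740 without 1 library. Partner genes lower numbered 7, and 0 under the pan-endothelial scaling, 11 without FL 1 and EC-KO 2 and 4 to 12 without 1 library; partner genes higher numbered 3, 24 under that scaling and 1 to 4 without 1 library. Tip cell genes lower numbered 2, 0 under that scaling, 5 without FL 1 and EC-KO 2 and 2 to 5 without 1 library; those higher numbered 0, and 5 under that scaling. It shifted all genes upward by construction, so Adcy3 (0.21), Adcy7 (0.48), Adcy9 (0.54), Gnai2 (0.63), Arrb2 (0.34) and Pgf (0.35) changed sign. Called genes were 42.5% lower with total counts and 42.6% with upper-quartile factors, against 50%. Cxcl11 was not called with limma-voom (adjusted p = 0.0671) or with the replicate block (0.0570). The replicate block gave 3848 called genes, with 6 partner genes lower and 4 higher; not every library correlated best with its own number. At 3 libraries a group, changes of small size are not detectable, and missing a threshold does not show that levels were equal.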
